A study of Mus musculus with 57 samples.

Results

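The comparison described here set untreated end buds of the mouse embryonic salivary gland against the whole gland of the same embryonic day, E13. The buds were the 3 samples titled as E13 end bud controls (A, B and C), and the glands were the 4 freshly dissected E13 submandibular glands (A, B, C and D). These are 7 of the 57 samples of the series. All 7 were wild type and untreated. The buds were labelled as salivary gland epithelium with the stage E13+4h, and the glands as salivary gland at E13. The extra 4 hours of the buds have no counterpart in the glands, and the buds and glands were counted in separate tables. Isolation of the buds, the 4 hours, library batch and tissue makeup therefore cannot be told apart in any difference between these groups. The labels do not say whether the samples of a group came from separate embryos, litters or pools. Every p-value of the 7-sample comparison therefore rests on the variation among these 7 libraries, which could be technical only. P-values from other fits rest on the libraries of those fits, with the same limit.

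The submandibular gland forms from an epithelial bud that grows into condensed mesenchyme and branches repeatedly. End buds are the rounded epithelial tips; they hold proliferating progenitors and are separated from the mesenchyme by a basement membrane. FGF10, made by mesenchyme, signals through FGFR2 in the epithelium and activates the RAS-ERK pathway, whose targets include the ETV transcription factors and feedback inhibitors of the DUSP and SPRY families. Neuregulin 1 (NRG1) is another growth factor, which binds ERBB3 and ERBB4. The mesenchyme also holds the parasympathetic ganglion, blood vessels and macrophages.

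Total counts per library ran from 16761596 to 24604739 in the buds and from 13033868 to 18548558 in the glands. Mitochondrially encoded genes took 1.66% to 1.91% of the counts in the buds and 1.35% to 1.57% in the glands. Long non-coding RNAs took 1.56% to 1.64% in the buds and 4.02% to 4.43% in the glands. Libraries of a group differed by more than sampling noise. Levels are given as CPM, counts scaled to a TMM-adjusted library size of 1000000, which are not divided by transcript length and are compared within a gene or list only.

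The labelled tissues were checked first with Epcam, an epithelial adhesion protein, and Col1a1, a chain of the type I collagen of mesenchyme. Epcam (chr17:87635979-87651129 in GRCm38) was at 969, 903 and 821 CPM in buds A, B and C, and at 243, 246, 232 and 227 CPM in glands A to D. Every bud was above every gland. The mean was 898 ± 74.4 CPM in buds (SD, n = 3) and 237 ± 9.1 CPM in glands (SD, n = 4), a fitted difference of 1.92 on the log2 scale (SE 0.0573, adjusted p = 4.24e-14 by edgeR's quasi-likelihood test with Benjamini-Hochberg adjustment over all genes tested). Col1a1 (chr11:94936224-94953042) was at 79.9, 38.4 and 117 CPM in buds and at 2211, 1995, 2216 and 2170 CPM in glands. The glands were uniform and the buds were not: bud B held the least Col1a1 and bud C the most. The difference for Col1a1 was -4.76 (SE 0.428, edgeR adjusted p = 1.43e-04), or 27.2-fold lower in buds.

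**Figure D1:**
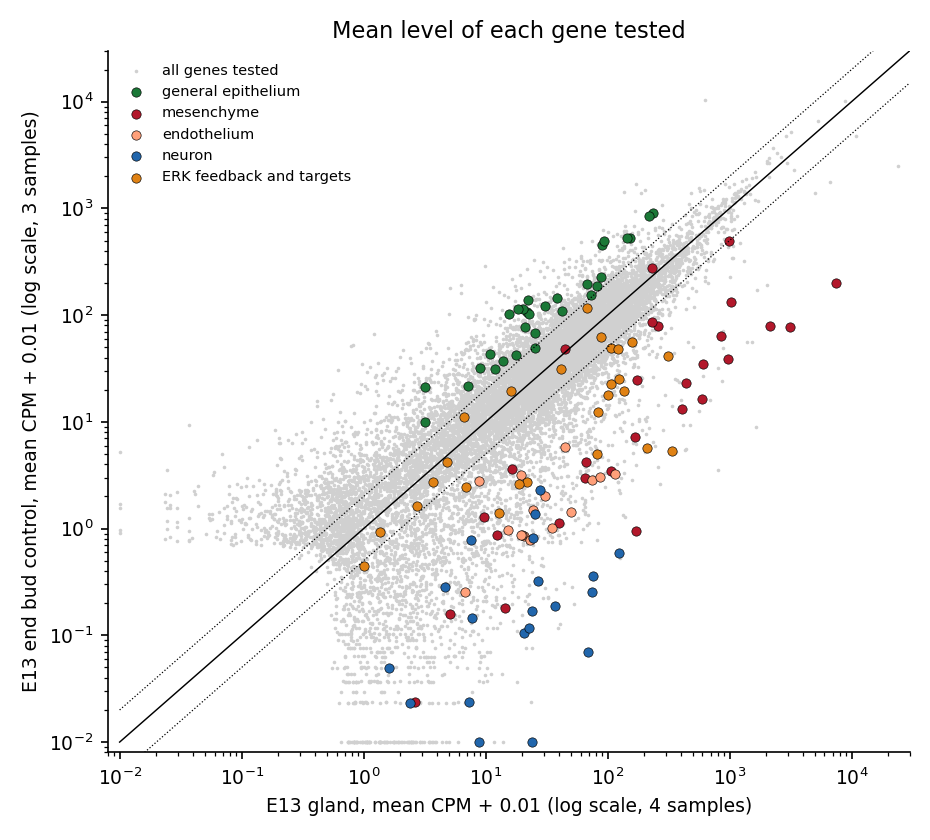
Mean CPM of each gene tested in the 4 E13 glands (horizontal axis, log scale, 0.01 CPM added) against the mean in the 3 untreated E13 end buds (vertical axis, same scale), with members of 5 lists coloured and lines at equality and at a fold of 2. The 30 general epithelial genes lie above the line of equality, and 26 of 28 mesenchymal genes and all 20 tested neuronal genes lie below it as called genes.

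Most genes differed between buds and glands. Of 15527 genes tested, 5963 (38.4%) were called higher in buds and 6292 (40.5%) lower at an adjusted p under 0.05. With a fold of 2 or more also required, 2527 genes (16.3%) were higher and 3038 (19.6%) lower. For 12032 genes (77.5%) the buds and the glands did not overlap. A lack of overlap in a single gene, as for Epcam above and for genes below, is therefore ordinary in this comparison. The median log2 difference over all genes tested was -0.01. A count of called members below has to be read against these shares.

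All 30 of 30 general epithelial genes were higher in buds, with a median log2 difference of 1.88, and 29 of the 30 passed the 2-fold rule. Their summed level was 5582 to 6503 CPM in buds and 1538 to 1713 CPM in glands, or 343% to 400% of the gland mean. Cdh1, the adhesion molecule E-cadherin, was at 894, 872 and 786 CPM in buds and at 235, 209, 208 and 218 CPM in glands, 3.91-fold higher in buds. The largest differences in the list belonged to Ovol2, a zinc-finger repressor that maintains epithelial identity (2.74, SE 0.131), Prss8, a membrane-anchored serine protease (2.73, SE 0.0812), Esrp2, an epithelial splicing regulator (2.63, SE 0.0766), and Llgl2, a polarity protein (2.61, SE 0.0667). The smallest was that of the tight-junction gene Cldn7 (0.95).

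The CAGGTG E-box, which reads CACCTG on the other strand, is the site through which SNAI and ZEB repressors are known to act on epithelial promoters. It was searched on both strands of the 250 bases upstream of each gene start in RefSeq promoter sequences (GRCm38.p6). It was present for 19.4% of the 27025 genes with such a sequence and for 19.1% of the 11544 tested genes that had one. A gene was counted if any of its sequences held the motif. Of the 30 general epithelial genes 18 had a sequence and 13 of these held the motif. Of the 28 mesenchymal genes 17 had a sequence and 0 held it. Fewer than 80% of either list had a sequence, so a comparison of the lists is void. The windows below show 6 epithelial genes, each read 5′ to 3′ on the strand of its gene, with CAGGTG or CACCTG in capitals. The Epcam window is chr17:87635930-87635978 (plus strand), with the motif 13 bases before the start. The others are Cldn4 at chr5:134946935-134946978 (minus strand), Cldn7 at chr11:69965334-69965399 (plus), Krt8 at chr15:102004418-102004483 (minus), Rab25 at chr3:88548297-88548362 (minus) and Ocln at chr13:100552531-100552596 (minus). No match in these windows overlapped another. A match is a run of letters, not a binding site.
Epcam: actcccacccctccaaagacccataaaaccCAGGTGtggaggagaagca
Cldn4: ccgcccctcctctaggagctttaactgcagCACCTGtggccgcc
Cldn7: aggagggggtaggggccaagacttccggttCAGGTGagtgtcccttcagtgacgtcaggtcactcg
Krt8: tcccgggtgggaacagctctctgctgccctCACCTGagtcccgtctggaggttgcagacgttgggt
Rab25: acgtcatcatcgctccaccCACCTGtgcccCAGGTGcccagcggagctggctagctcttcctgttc
Ocln: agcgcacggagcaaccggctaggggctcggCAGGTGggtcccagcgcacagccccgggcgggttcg

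Basal and hemidesmosomal genes, which anchor epithelium to its basement membrane, were nearly all higher in buds: 14 of 16, 0 lower, median 2.47. Lama3, a chain of laminin-332, was at 97.6, 106 and 84.3 CPM in buds against 6.44 to 9.14 CPM in glands (log2 difference 3.73, SE 0.115). Col17a1, a hemidesmosomal collagen, differed by 3.30 (SE 0.119) and the keratin Krt17 by 3.10 (SE 0.148). Krt5, the basal keratin, was less even, at 294, 258 and 171 CPM in buds and at 53.3, 63.7, 25.7 and 35.5 CPM in glands. The groups for Krt5 still did not overlap (2.44, SE 0.366, edgeR adjusted p = 0.00151).

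Duct genes were split, with 8 of 13 tested members higher and 4 lower (median 1.09). Krt19, a keratin of luminal duct cells, was at 169, 218 and 133 CPM in buds and between 15.4 and 20.5 CPM in glands (3.29, SE 0.2). Tfcp2l1, a duct transcription factor, was 2.49 higher (SE 0.11). In the other direction, Ccnd2, a D-type cyclin that other cells express too, was at 46.8, 38.1 and 62.9 CPM in buds and at 920, 811, 871 and 920 CPM in glands (-4.15, SE 0.188). Cldn10, a channel-forming claudin, was -2.29 lower (SE 0.237).

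Regulators of the end bud also went both ways, with 11 of 21 higher and 8 lower (median 0.30). Sox10, which marks progenitors able to make acini, was at 714, 663 and 667 CPM in buds and at 181, 159, 166 and 157 CPM in glands, 4.12-fold higher. Elf5, an ETS factor of glandular epithelium, was 2.53 higher (SE 0.0829) and Barx2, a homeobox factor, 2.18 higher (SE 0.0624). Sox9, needed for the distal progenitors, was higher by 0.67 (SE 0.0666), and Kit, the receptor kinase of end bud progenitors, lower by -0.87 (SE 0.0758). Etv5, Ccnd1, Myc and Etv4, which respond to ERK signalling, were the 4 lowest of this list and are described with that pathway.

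The list of secretory products summed to 233 to 269 CPM in buds and 435 to 465 CPM in glands. Of 20 listed genes 12 were tested, with 3 higher, 5 lower and a median of -0.999. Lpo, a salivary peroxidase, was at 16.2, 12.7 and 15.1 CPM in buds and 1.41 to 3.26 CPM in glands (2.85, SE 0.202). Kcnn4, a calcium-activated potassium channel, was lower in buds, at 0.825 to 1.18 CPM against 20.6 to 28.3 CPM (-4.61, SE 0.174). Aqp5, the water channel of acinar cells, was at 0.397 to 1.01 CPM in buds and 0.572 to 1.86 CPM in glands; the groups overlapped and the difference was not called (-0.98, edgeR adjusted p = 0.053), although it was called without bud A (-1.58) or without gland C.

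The basement membrane list divided by gene, with 13 of 24 members higher in buds and 6 lower (median 0.45). Lama5, the alpha chain of laminin-511, was at 1335, 1584 and 1555 CPM in buds and at 234, 165, 192 and 213 CPM in glands, 7.42-fold higher (edgeR adjusted p = 1.91e-07). Frem2, a Fraser complex protein, was 2.89 higher (SE 0.127) and Lamb3, another chain of laminin-332, 2.57 higher (SE 0.131). Nid2, a nidogen that links laminin to collagen IV, was at 27.2, 18.6 and 35.02 CPM in buds against 597 to 607 CPM in glands, 22.1-fold lower. Nid1 was -3.01 lower (SE 0.148) and Lama2, the laminin alpha chain of muscle and mesenchyme, -3.60 lower (SE 0.327). Matrix proteases and their inhibitors were mostly lower in buds, 14 of 17 tested, with 2 higher (1 without bud A) and a median of -0.67. Adamts5, a versican- and aggrecan-cleaving protease, was at 1.12 to 2.64 CPM in buds and 71.9 to 78.05 CPM in glands (-5.22, SE 0.137).

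Cartilage genes did not behave as a block: 8 of 14 tested were higher in buds and 5 lower (median 1.41). Col2a1, the type II collagen chain, was at 1084, 955 and 1222 CPM in buds and at 292, 271, 277 and 271 CPM in glands, 3.92-fold higher. Col9a1 and Col9a3, chains of the type IX collagen that decorates type II fibrils, were higher by 2.13 (SE 0.0599) and 2.50 (SE 0.0521). Acan and Hapln1, the aggrecan core protein and its link protein, were lower, by -4.29 (SE 0.334) and -5.28 (SE 0.426).

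Mesenchymal genes were lower in buds in 26 of 28 cases, with a median log2 difference of -4.31. Their sum was 1356 to 1935 CPM in buds and 20020 to 20400 CPM in glands, which put the buds at 6.71% to 9.58% of the gland mean. Col1a2, the second type I collagen chain, was at 89.4, 33.4 and 111 CPM in buds and 3067 to 3213 CPM in glands (-5.32, SE 0.477). Tbx18, a T-box factor of mesenchyme, was at 0.119 to 0.236 CPM in buds and 12.3 to 18.1 CPM in glands (-6.41, SE 0.272). Vim, the intermediate filament vimentin, was nearer, at 456 to 543 CPM in buds and 972 to 1029 CPM in glands (2.03-fold lower). Vim thus made up a sizeable part of the bud sum of 1356 to 1935 CPM. That sum therefore leans on a gene reduced less than most of the list. The 2 exceptions in the list were Snai2, a zinc-finger repressor of epithelial genes whose groups overlapped at 44.8 to 55.7 and 43.3 to 46.9 CPM (0.12, edgeR adjusted p = 0.161, but called without bud C), and Gas1, a hedgehog co-receptor that was slightly higher in buds (0.26, SE 0.0613), a call lost with all groups of both tables in 1 fit (edgeR adjusted p = 0.0607). Bud B had the lowest sum of mesenchymal, endothelial, erythroid and neuronal genes among the buds. In bulk samples such as these, fewer cells of a type and less RNA per cell cannot be told apart.

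Endothelial and neuronal genes were at low levels in the buds. Endothelial genes were lower in 16 of 16 (median -4.51), summing to 15.8 to 41.2 CPM in buds and 515 to 678 CPM in glands. Pecam1, the endothelial adhesion molecule CD31, was at 4.01, 1.65 and 2.94 CPM in buds and 62.7 to 86.9 CPM in glands. Neuronal genes were lower in all 20 tested (median -7.45), summing to 4.77 to 10.4 CPM against 559 to 686 CPM. Tubb3, a neuronal tubulin, was at 0.649, 0.354 and 0.754 CPM in buds and at 139, 120, 127 and 113 CPM in glands, 202-fold lower.

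Blood and immune genes gave the same direction. Of 10 tested erythroid genes 9 were lower (median -5.93) and the sum was 10.6 to 27.8 CPM in buds and 2394 to 3910 CPM in glands. Klf1, an erythroid transcription factor, was the member called higher, at 1.01 to 1.47 CPM in buds and 0.528 to 0.572 CPM in glands. Macrophage and leukocyte genes were lower in 14 of 15 (median -3.24); the macrophage mannose receptor Mrc1 was at 0.199 to 0.353 CPM in buds and 12.96 to 20.01 CPM in glands (-5.93, SE 0.262). Haemoglobin genes are near-identical copies, so the split of reads among them is uncertain.

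Skeletal muscle genes were lower in 15 of 17 tested (median -6.22) and higher in 0 (1 without gland B), but they also differed among glands. Gland B summed to 1088 CPM, against 346, 289 and 438 CPM in glands A, C and D and 118 to 158 CPM in buds. Acta1, skeletal actin, was at 22.5, 93.6, 14.2 and 32.5 CPM in the glands and 0.0406 to 0.199 CPM in the buds. Its log2 difference was -8.31 with all samples and -7.51 without gland B. Pericyte and smooth muscle genes were split, 3 of 10 higher and 4 lower (median -0.04), and summed to more in buds, 601 to 659 CPM against 353 to 433 CPM in glands. Tagln, an actin-binding protein of contractile cells, was 2.16 higher (SE 0.101), and Kcnj8, a pericyte potassium channel, -4.53 lower (SE 0.225).

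The Schwann lineage list showed a split of another kind, with 3 of 12 higher and 6 lower (median -0.75). Its sum was 1299 to 1367 CPM in buds and 540 to 575 CPM in glands, and Erbb3 and Sox10 made up most of the sum in each bud. Erbb3 and Sox10, which salivary epithelium expresses as well, were higher in buds, and Mbp, a myelin protein, was higher by 0.57 (SE 0.0921). Ngfr, the neurotrophin receptor of neural crest derivatives, was at 8.72, 4.12 and 8.54 CPM in buds and 156 to 179 CPM in glands (-4.47, SE 0.208). Of the short melanocyte and mesothelium list 3 of 7 genes were tested and 2 were called higher. Xist and Y-linked genes were counted in all 7 libraries and 0 of 5 were called, although 1 was called without bud A and 3 without gland B.

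**Figure D2:**
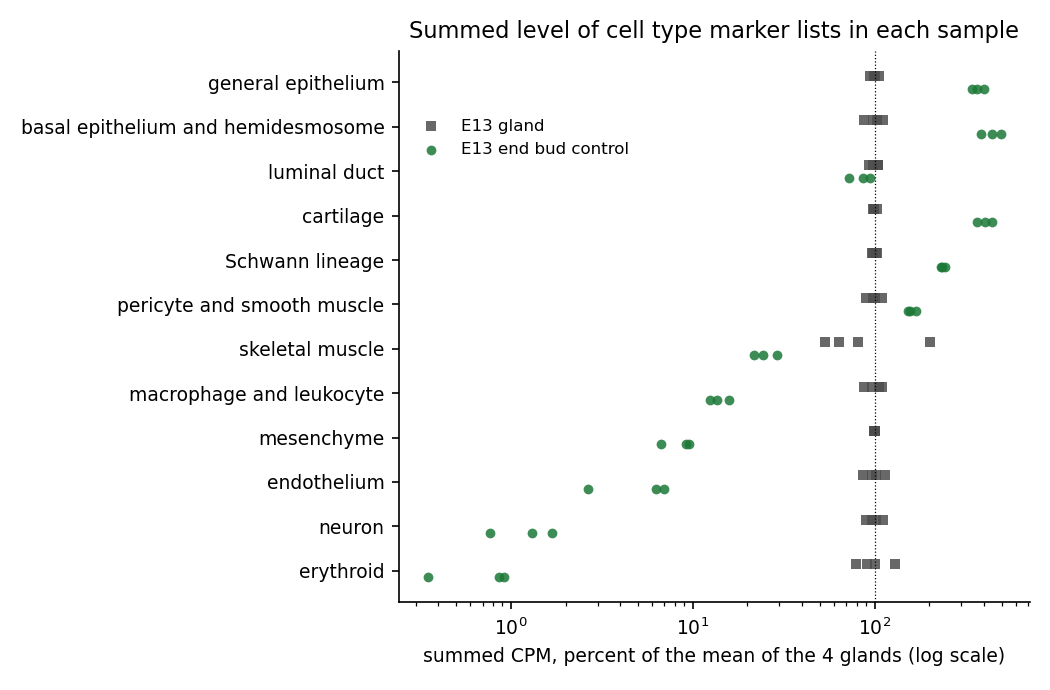
Summed CPM of each cell type list in each library, as a percent of the mean of the 4 E13 glands (log scale), for the 3 untreated E13 end buds and the 4 E13 glands. The bud points lie above 340% for general epithelium, at 6.71% to 9.58% for mesenchyme and below 2% for neuron and erythroid genes.

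Among single genes with at least 10 CPM in the higher group, the 15 highest in buds ranged from 4.49 to 6.01 in log2 difference. They were Pcdh8, Serpinb5, Chdh, Fam196b, Paqr6, Edn2, Lipm, Tmprss5, Fam84a, Cmya5, Anxa8, Tspear, Aldh1a1, Tmprss13 and Tgm5. Serpinb5, the epithelial serpin maspin, was at 49.8, 56.7 and 50.0 CPM in buds and 0.698 to 0.930 CPM in glands (5.99, SE 0.125). Pcdh8, a protocadherin, was at 59.6, 49.0 and 46.3 CPM in buds and 0.466 to 0.997 CPM in glands (6.01, SE 0.155). Edn2, an endothelin peptide, was at 13.5, 14.9 and 14.1 CPM in buds and 0.254 to 0.469 CPM in glands. The rule for naming these genes required every bud to lie above every gland.

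The 15 lowest in buds included genes known from neurons and from muscle. Vip, the vasoactive intestinal peptide of parasympathetic neurons, had 0 counts in all 3 buds and 28.3, 23.2, 23.3 and 21.6 CPM in the glands. Against a floor of 3 counts over the bud group, Vip was at least 538-fold lower, and Ctnna2, the neuronal alpha-catenin, at least 259-fold lower. Olfr78, an odorant receptor family member, had 2 counts over the buds and 15.97 to 20.3 CPM in the glands, a ratio of 608 with a 95% counting interval of 168 to 5030. Stmn3, Stmn2, Prph, Pcsk1n, Nwd2, Brinp3, Scg3, Cxcl13 and the muscle genes Myl1 and Acta1 were also among the 15. Several moved by over 1.5 times when a single library was left out, with the call kept. Without bud A, Stmn3 moved from -10.09 to -11.7, Prph from -10.02 to -11.1 and Stmn2 from -8.09 to -9.51. Without bud B, Scg3 moved from -8.13 to -10.6. Without bud C, Brinp3 moved from -8.21 to -9.58, Cxcl13 from -8.27 to -8.93, Pcsk1n from -8.53 to -7.92 and Nwd2 from -8.24 to -7.64. Without gland B, Myl1 moved from -8.31 to -7.58. Tpbpa, a gene known from placental trophoblast, had 0 counts in the buds and 19.3, 2.25, 22.7 and 11.1 CPM in the glands; it was called (edgeR adjusted p = 0.024) with all samples and lost its call without gland A, C or D.

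FGF ligands were lower in buds in 5 of 6 tested, with 1 higher (2 without bud C) and a median of -3.62. Fgf10 was at 1.42, 0.236 and 1.15 CPM in buds A, B and C, and at 176, 173, 175 and 157 CPM in the glands. Bud B was lowest, as it was for Col1a1, and the groups were far apart: 167-fold lower in buds (-7.38, SE 0.211, edgeR adjusted p = 5.59e-09). Fgf7, which binds the same receptor isoform, was at 0.953 to 1.42 CPM in buds and 15.4 to 21.4 CPM in glands (-4.01, SE 0.184).

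Other ligands differed less or were sparse. Fgf18 was at 0.556 to 1.06 CPM in buds and 4.66 to 8.13 CPM in glands (-3.22, SE 0.279). Fgf1 was at 16.8 to 19.2 and 25.3 to 29.2 CPM (-0.67, SE 0.0872). Fgf2 had 3 counts over the buds, for a gland to bud ratio of 53.6 (95% counting interval 18.01 to 263); its fitted difference was -5.56 with all samples and -6.26 without bud C. Fgf9, made by epithelium in several organs, was the ligand called higher, at 20.3, 19.6 and 17.5 CPM in buds against 9.73 to 12.5 CPM (0.85, SE 0.112). Fgf3, Fgf8, Fgf16, Fgf20 and Fgf22 stayed below 1.2 CPM in every sample and were not tested.

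Among FGF receptors and their cofactors 5 of 10 tested were higher in buds and 2 lower, with a median of 0.59. For so few genes these counts lie near the shares over all genes tested (38.4% and 40.5%) and are no result about the list. Fgfr2, the receptor of FGF7 and FGF10, was at 587, 616 and 678 CPM in buds and at 98.8, 88.6, 91.9 and 89.8 CPM in glands. All buds exceeded all glands, by 6.79-fold (2.76, SE 0.0585, edgeR adjusted p = 1.22e-15). Fgfr1 was at 566 to 675 CPM in buds and 272 to 301 CPM in glands (1.09, SE 0.0593). Fgfr3 was higher by 1.38 (SE 0.267), with bud C at 26.9 CPM against 14.9 and 13.3 CPM in the other buds.

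The kinase-lacking receptor Fgfrl1 and the docking protein Frs2 were higher by 0.63 (SE 0.0677) and 0.60 (SE 0.059). Fgfr4 overlapped between groups (0.57, edgeR adjusted p = 0.265), and Frs3 was not called (0.31, edgeR adjusted p = 0.117). Hs3st3a1, a heparan sulfate sulfotransferase, was lower (-1.66, SE 0.159), whereas its paralog Hs3st3b1 spanned 63.4 to 102 CPM in buds around the 79.9 to 93.3 CPM of glands (-0.02, edgeR adjusted p = 0.938). Kl, the co-receptor klotho, was at 0.0397 to 0.177 CPM in buds and 4.10 to 5.12 CPM in glands (-5.17, SE 0.376), and Klb was not tested.

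**Figure D3:**
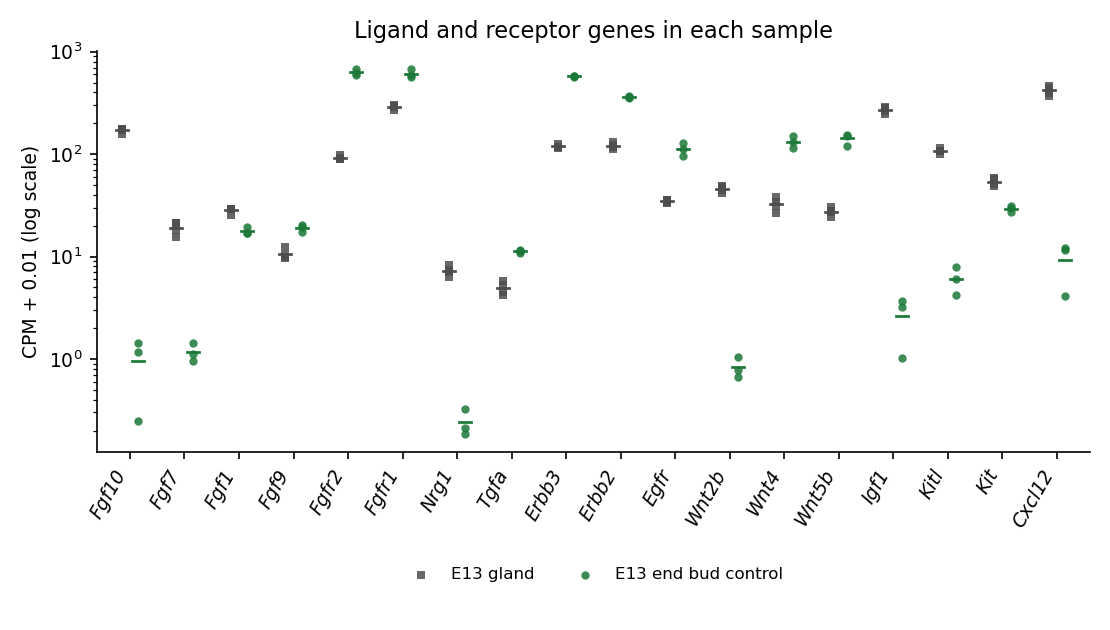
CPM of ligand and receptor genes of the FGF, ERBB, WNT, IGF, KIT and CXCL12 pathways in each library (vertical axis, log scale, 0.01 CPM added) for the 3 untreated E13 end buds and the 4 E13 glands, with a bar at each group mean. Fgf10 and Nrg1 are far lower in the buds and Fgfr2 and Erbb3 higher, with no overlap between the groups for these genes.

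For NRG1, too, the ligand gene was lower and the receptor gene higher in buds. Nrg1 was at 0.203, 0.177 and 0.318 CPM in buds and at 7.09, 6.28, 8.26 and 7.33 CPM in glands (-4.89, SE 0.276). Erbb3 was at 582, 568 and 579 CPM in buds and at 126, 118, 116 and 118 CPM in glands, 4.82-fold higher in buds (edgeR adjusted p = 1.11e-15). The buds were tight for Erbb3 and lay well above every gland. Over the list, 7 of 13 tested genes were higher in buds and 5 lower (median 0.89). For so few genes these counts, too, lie near the shares over all genes tested and are no result about the list.

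The partner receptors Erbb2 and Egfr were higher, by 1.59 (SE 0.0538) and 1.68 (SE 0.0823), and Erbb4 was lower (-3.08, SE 0.56) at no more than 0.295 CPM in any bud. Errfi1, a feedback inhibitor of these receptors, was higher by 1.20 (SE 0.0535). Of the other neuregulins, Nrg2 was lower by -0.76 (SE 0.201), and Nrg3 had 1 count over the buds (gland to bud ratio 244, 95% counting interval 43.4 to 9695). That count was in bud C, and without this bud the fitted difference of Nrg3 moved from -7.395 to -8.995. Nrg4 was called higher (0.89, edgeR adjusted p = 0.0415) but not without bud C, gland B or gland D.

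Ligands of EGFR went both ways. Tgfa was at 10.8, 11.2 and 11.7 CPM in buds and 4.16 to 5.80 CPM in glands (1.18, SE 0.143), and Egf was higher by 1.299 (SE 0.27). Hbegf was at 1.83 to 3.08 CPM in buds and 6.34 to 7.37 CPM in glands (-1.47, SE 0.193). Btc was not called (0.72, edgeR adjusted p = 0.079), though it was without bud C. Areg and Ereg had 0 counts in every bud and stayed below 0.6 CPM in glands; they and Epgn were not tested.

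Targets and feedback inhibitors of ERK signalling were lower in buds in 20 of 26 tested and higher in 3, with a median of -1.50. Their sum was 541 to 596 CPM in buds and 2112 to 2253 CPM in glands. Etv5, an ETS factor induced by FGF signalling, was at 5.51, 3.24 and 7.22 CPM in buds and at 361, 329, 336 and 325 CPM in glands, 61.2-fold lower in buds (-5.94, SE 0.194, edgeR adjusted p = 9.96e-08). Dusp6, a phosphatase that inactivates ERK, was at 6.204, 4.36 and 6.31 CPM in buds and at 214, 203, 215 and 202 CPM in glands, 36.3-fold lower (-5.18, SE 0.0906, edgeR adjusted p = 5.41e-16). No bud came near any gland for either gene.

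The other feedback genes followed in smaller steps. Spry4 was lower by -3.96 (SE 0.238), Dusp4 by -2.98 (SE 0.222), Spry2 by -2.52 (SE 0.0711), Spred1 by -1.52 (SE 0.0596), Spred2 by -1.31 (SE 0.0596), Spry1 by -1.11 (SE 0.0543) and Dusp7 by -0.51 (SE 0.0566). Etv1 and Etv4 were lower by -3.17 (SE 0.191) and -2.23 (SE 0.0734). Ccnd1, cyclin D1, was at 42.1, 39.9 and 41.5 CPM in buds and at 321, 292, 314 and 329 CPM in glands (-2.93, SE 0.0579).

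Phlda1, Egr1, Myc and Epha2 were lower by -2.85 (SE 0.165), -2.80 (SE 0.0908), -2.74 (SE 0.0893) and -2.30 (SE 0.0643), and Hbegf is described above. Epha4 was lower by a small margin (-0.38, SE 0.104). Fosl1 (-0.75) and Egr3 (-1.17) were called lower but lost the call when single libraries were left out: Fosl1 without bud B, bud C or gland C, and Egr3 without bud B. Dusp5 (-0.42), Egr2 (-0.19) and Lif (-0.56) were not called, with edgeR adjusted p of 0.207, 0.362 and 0.128; Lif was called without gland D. Il17rd, a membrane inhibitor of FGF signalling, and Ier3 were higher in buds by 0.78 (SE 0.0542) and 0.73 (SE 0.127). Spred3 was called higher by 0.24 (SE 0.102), a call lost without bud B, gland A or gland B.

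Buds of the same stage treated with NRG1 give another level for these genes. They were counted in the same table as the untreated buds, and the comparison of NRG1 with untreated buds shares the 3 untreated buds with the comparison above. Of 16180 genes tested there, 23.1% were higher and 19.3% lower with NRG1; among the 28 ERK genes, 22 were higher and 1 lower. Etv5 was at 476, 431 and 436 CPM in the NRG1 buds, against 3.24 to 7.22 CPM untreated and 325 to 361 CPM in glands. Dusp6 was at 268, 232 and 257 CPM with NRG1, against 4.36 to 6.31 and 202 to 215 CPM. The gland values lay between the untreated and the treated buds for both genes. The NRG1 effect was 6.38 (SE 0.557) for Etv5 and 5.50 (SE 0.469) for Dusp6 on the log2 scale. Fgf10 did not follow: it was at 0.691, 0.701 and 1.25 CPM with NRG1 (-0.13, edgeR adjusted p = 0.927). Levels in glands and NRG1 buds stand side by side across tables and were not tested against each other.

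**Figure D4:**
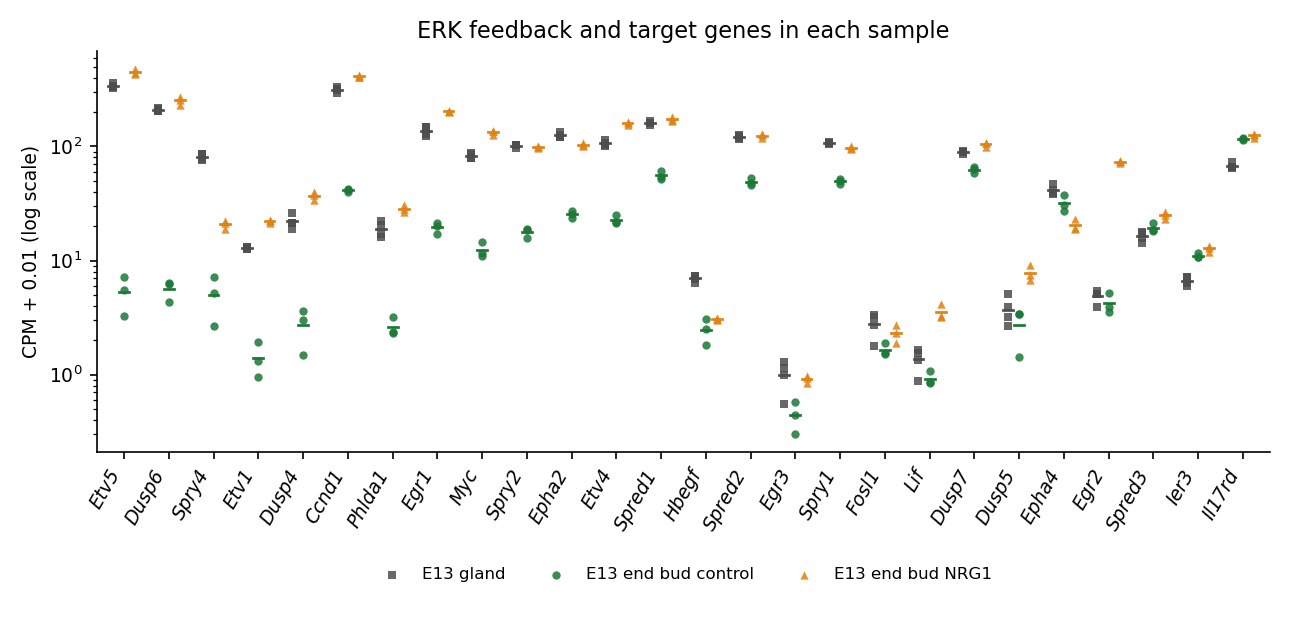
CPM of tested ERK target and feedback genes in each library (vertical axis, log scale, 0.01 CPM added, bar at each group mean) for E13 glands, untreated E13 end buds and NRG1-treated E13 end buds. For Etv5 and Dusp6 the untreated buds sit below 7.3 CPM, while the glands and the NRG1 buds are above 200 CPM.

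Other signalling families had members called in both directions. The counts for WNT ligands, for BMP and TGF-beta genes and for the ectodysplasin list lie near the shares over all genes tested and are no result about those lists. The same is true of the end bud regulators, secretory products, cartilage, Schwann lineage and pericyte and smooth muscle genes above. It is also true of the hedgehog, ATF4, immediate early, heat shock, p53, wound epithelium, clock and lysosome lists below. Among WNT ligands 5 of 11 tested were higher and 5 lower (median 0.05). Wnt5b was at 154, 152 and 120 CPM in buds and 24.4 to 30.4 CPM in glands (2.37, SE 0.0961), Wnt6 was higher by 2.08 (SE 0.117) and Wnt4 by 2.03 (SE 0.129). Wnt2b was at 0.649 to 1.03 CPM in buds and 41.4 to 49.0 CPM in glands (-5.78, SE 0.139), and Wnt11 was lower by -2.30 (SE 0.179). WNT targets and antagonists were lower in 13 of 20 tested and higher in 5 (median -1.90). Sp5, a direct WNT target, had 0 counts in buds and was at least 35.9-fold lower. Dkk3, a secreted Dickkopf family member, was at 106, 101 and 93.2 CPM in buds and 7.56 to 9.97 CPM in glands (3.60, SE 0.087).

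Hedgehog pathway genes were lower in 6 of 10 tested and higher in 3 (median -0.51). The target Gli1 was lower by -3.42 (SE 0.24), whereas the receptor gene Ptch1, also a target, was higher by 0.91 (SE 0.107). In the ectodysplasin list the ligand Eda was lower (-1.95, SE 0.0961) and the adaptor Edaradd higher (0.85, SE 0.106), with 2 of 6 called in each direction and a median of -0.08. BMP and TGF-beta genes were 8 of 23 higher and 8 lower (median -0.09). Bmp4 was at 1.18 to 1.58 CPM in buds and 16.2 to 20.3 CPM in glands (-3.62, SE 0.16). Tgfb2 was higher by 1.41 (SE 0.0667). Smad9, a BMP-responsive SMAD, was at 12.1, 13.8 and 34.5 CPM in buds and 0.698 to 1.48 CPM in glands (4.23, SE 0.555), and at 3.60 without bud C, which was the highest.

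Retinoid genes were lower in 11 of 14 tested and higher in 2 (median -2.28). Stra6, the retinol transporter, and Rarb, a retinoic acid receptor induced by its own ligand, were lower by -4.07 (SE 0.139) and -4.00 (SE 0.106). Aldh1a1, an enzyme that makes retinoic acid, was at 171, 156 and 162 CPM in buds and 4.32 to 8.27 CPM in glands (4.69, SE 0.136). Neurotrophic and guidance ligands were lower in 20 of 28 and higher in 7 (median -1.88). Nrtn, the neurturin that supports parasympathetic neurons, was at 179, 165 and 154 CPM in buds and 25.5 to 37.8 CPM in glands (2.45, SE 0.121). Igf1 was lower by -6.61 (SE 0.254) and Cxcl12, a chemokine of mesenchyme, by -5.43 (SE 0.334).

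Lists linked to growth and nutrient state are given next. FOXO targets, which are induced when growth factor signalling through AKT is low, were higher in buds in 15 of 19 and lower in 1 (2 without bud B), with a median of 1.28. Fbxo32, a ubiquitin ligase of this group, was at 506, 504 and 444 CPM in buds and at 62.4, 55.5, 57.4 and 64.9 CPM in glands (3.01, SE 0.0643). Pik3ip1, an inhibitor of PI3 kinase, was higher by 2.81 (SE 0.115). With NRG1, in the comparison that shares the untreated buds, 16 of the 19 genes were lower and 0 higher.

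Ribosome biogenesis factors were lower in buds in 21 of 24 and higher in 1 (median -1.09). Rrp12, a processing factor, was at 5.96, 6.07 and 7.78 CPM in buds and 48.5 to 55.7 CPM in glands (-2.98, SE 0.0995). Nop56, a snoRNP protein, was lower by -1.53 (SE 0.0522), and Npm1, nucleophosmin, was the member called higher (0.28, SE 0.0578). With NRG1, 22 of the 24 were higher and 0 lower. Ribosomal protein genes themselves took 6.81% to 7.27% of the counts in buds and 5.76% to 6.27% in glands.

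Sterol and lipid synthesis genes were lower in 18 of 28 and higher in 3 (median -0.55), with 27 of 28 higher and 0 lower under NRG1. With the fold of 2 also required, 7 of the 28 were lower in buds than in glands and 0 higher, against 19.6% lower over all genes tested. Msmo1, an enzyme of cholesterol synthesis, was at 11.03, 10.25 and 12.4 CPM in buds and 59.3 to 64.4 CPM in glands (-2.46, SE 0.0775), and Srebf1, a regulator of lipid synthesis, was higher by 0.84 (SE 0.0534). Genes of amino acid metabolism regulated by ATF4 were 9 of 27 higher and 12 lower (median -0.12), and 25 higher and 2 lower with NRG1. Nupr1, a stress-induced chromatin protein, was higher by 3.75 (SE 0.151), and the amino acid transporter Slc7a1 lower by -1.36 (SE 0.0646).

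Cell cycle genes were called in both directions. Of 32 genes 20 were higher in buds and 11 lower (median 0.60). Mitotic genes were among the higher ones: Cenpe, a kinetochore motor, was at 185, 205 and 187 CPM in buds and 39.9 to 48.8 CPM in glands (2.12, SE 0.0667). Mki67, the proliferation marker, was at 479, 579 and 544 CPM in buds and 186 to 244 CPM in glands, 2.50-fold higher. Genes of the G1/S transition and of replication were among the lower ones: Ccne1, cyclin E1, was at 6.30 to 9.41 CPM in buds and 63.3 to 73.0 CPM in glands (-3.04, SE 0.106). Ccne2 was lower by -2.37 (SE 0.117), Cdc6 by -2.15 (SE 0.1), Pcna by -1.12 (SE 0.0526) and Mcm5 by -0.40 (SE 0.0473). Cdt1, which licenses replication origins, was higher by 0.51 (SE 0.0665), and Mcm7, a subunit of the replicative helicase, was not called (-0.07, edgeR adjusted p = 0.193). No list by phase was tested, and these examples were grouped after their values were seen.

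**Figure D5:**
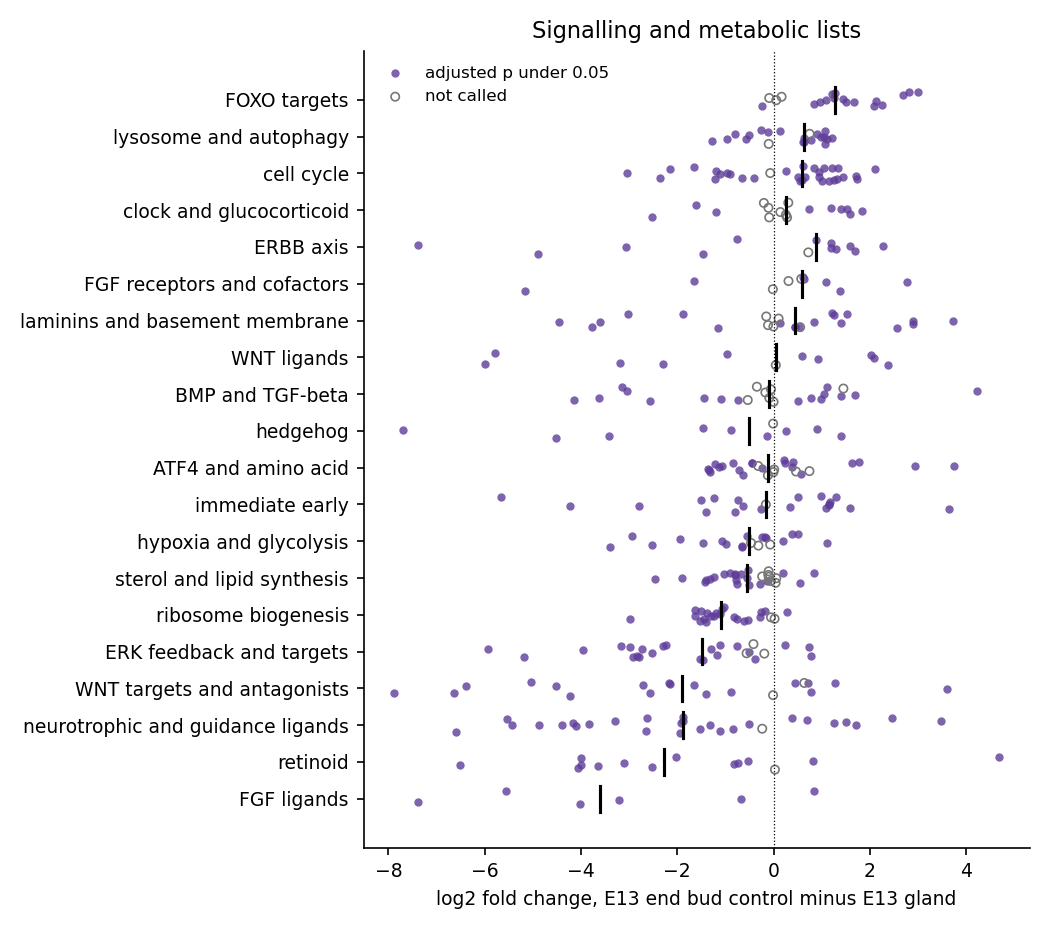
Log2 difference of buds against glands (horizontal axis) for every tested member of 20 signalling and metabolic lists, 1 point per gene with vertical scatter for display only, with called genes filled and the median of each list marked. FOXO targets lie mostly above 0, and ERK targets and ribosome biogenesis factors mostly below it.

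Lists of genes that answer to handling, stress or culture are given because the buds alone had 4 added hours. Immediate early genes were 10 of 21 higher and 10 lower (median -0.16). Fosb was at 0.608 to 1.24 CPM in buds and 33.3 to 56.0 CPM in glands (-5.67, SE 0.314), and Fos at 3.73 to 4.48 and 54.4 to 99.8 CPM (-4.22, SE 0.276). Fosl2, another AP-1 subunit, was at 227, 264 and 216 CPM in buds and 17.3 to 21.4 CPM in glands (3.63, SE 0.0826). Heat shock genes were 6 of 14 higher and 7 lower (median -0.33), with Hspb1 higher by 1.26 (SE 0.179) and Hsph1 lower by -1.76 (SE 0.0641).

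Hypoxia and glycolysis genes were lower in 13 of 20 and higher in 4 (median -0.51). Vegfa, the angiogenic factor, was at 18.5, 20.3 and 18.3 CPM in buds and 105 to 115 CPM in glands (-2.53, SE 0.0643). The list of p53 targets was 5 of 13 tested higher and 7 lower (median -0.21), and Cdkn1a, the cell cycle inhibitor p21, was higher by 1.12 (SE 0.237). Inflammatory genes were 2 of 12 higher and 7 lower (median -0.55), with Nfkbiz higher by 1.59 (SE 0.107) and Ccl20 lower by -6.38 (SE 0.393). Wound epithelium genes were 5 of 12 higher and 4 lower (median 0.39).

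Clock and glucocorticoid-responsive genes were 6 of 16 higher and 3 lower (median 0.27). Bud B stood apart here: Per1 was at 78.8, 194 and 78.7 CPM in buds A, B and C, and 37.1 to 41.6 CPM in glands (1.53, SE 0.387). Fkbp5, a glucocorticoid-induced chaperone, was at 13.5, 20.9 and 13.9 CPM in buds and 86.8 to 96.3 CPM in glands (-2.52, SE 0.14). Lysosome and autophagy genes were 12 of 21 higher and 7 lower (median 0.62), with Flcn, the folliculin that restrains lysosome biogenesis, higher by 1.21 (SE 0.0689). The part of handling and culture in any of these differences was not tested.

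The same contrast could be drawn at E14 with 2 untreated end buds (B and C) and 4 glands, none of them an E13 sample. It was taken from a fit of all 35 samples of both tables, which include the 7 E13 samples. The E13 calls came from a fit of those 7 alone. The 2 fits therefore share samples, and their calls are not independent. The E14 buds are titled as E14 but carry the stage label of the E13 buds, and the title was followed here. Of 17682 genes tested at E14, 4238 (24.0%) were higher in buds and 4854 (27.5%) lower. Of the genes called higher at E13, 3654 were also called higher at E14, which is 61.3% of the E13 list and 86.2% of the E14 list. Of those lower at E13, 4285 were lower at E14 too (68.1% and 88.3%).

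All 30 general epithelial genes were again higher at E14, and 23 of 28 mesenchymal genes were lower. The bud to gland difference itself changed between the stages for 1679 genes (9.50%) in the positive direction, E14 above E13, and for 1050 genes (5.94%) in the negative direction. Without E14 bud B these counts were 947 and 491. Of 28 mesenchymal genes 24 were among the positive ones and 0 among the negative, as were 16 and 0 of 16 endothelial genes. Col1a1 was at 1136 and 322 CPM in E14 buds B and C and 2509 to 2721 CPM in E14 glands, so its difference of -1.84 at E14 was 2.93 above that of E13 (SE 0.45, edgeR adjusted p = 1.61e-05).

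Relative to glands, the E14 buds held more of the mesenchymal, endothelial, neuronal and erythroid marker genes than the E13 buds. Mesenchymal genes summed to 46.2% of the E14 gland mean in E14 bud B and 18.8% in bud C, against 6.71% to 9.58% at E13. Endothelial genes were at 73.5% and 47.0%, against 2.67% to 6.94% at E13. Neuronal genes were at 13.1% and 15.3%, against 0.771% to 1.69%, and erythroid genes at 23.7% and 5.22%, against 0.350% to 0.919%. Not every list was higher: Schwann lineage genes were at 198.7% and 235.5%, against 233.2% to 245.5% at E13, and pericyte and smooth muscle genes at 161.3% and 135.3%, against 153.4% to 168.1%. Skeletal muscle genes summed to 53.8 and 102 CPM in the E14 buds, below the 118 to 158 CPM of the E13 buds, but at 42.6% and 80.7% of the gland mean, against 21.9% to 29.2%. The E13 bud sum did not follow most members of this list, whose median log2 difference was -6.22. Gland B, at 1088 CPM, also raised the E13 gland mean. These percents are therefore no measure of muscle content. Etv5, at 70.2 and 17.3 CPM in E14 buds B and C, and Dusp6, at 60.9 and 17.2 CPM, were higher in bud B than in bud C, as were the mesenchymal, endothelial and erythroid sums. The part of these cells in the differences between stages was not tested.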

How the data were processed

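RNA sequencing counts per gene were deposited by the authors as separate tables for end buds and glands. The submitters' processing notes name fastp, STAR, featureCounts and the mm10 build. Versions, annotation release and strand setting: not given in the sources used here. Per the labels' protocols the libraries were made from total RNA with a NEBNext Ultra kit. The tables share 35275 Ensembl IDs, which joined them; 97.8% had a symbol. Genes were filtered with filterByExpr and tested on the deposited counts with edgeR 4.0.16 (R 4.3.3): TMM scaling, robust quasi-likelihood fit, Benjamini-Hochberg adjustment over all genes tested, adjusted p threshold 0.05. The main comparison used 7 samples. The E14 contrast and the difference between stages were fitted with 35 samples of both tables. The NRG1 effect was fitted within the bud table. CPM are counts scaled to a TMM-adjusted library size of 1000000, on the scale of the main fit. SE are on the log2 scale. Intervals on ratios cover counting error only. Alternatives included DESeq2 1.42.0 and leaving out each library. The test was also run on simulated counts; those values are not used here.

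Named genes were Epcam and Col1a1, the 15 largest called differences in each direction among protein-coding genes with at least 10 CPM in the higher group and no overlap, up to 4 called members of each list in each direction, and all members of the FGF, ERBB and ERK lists; other members were chosen after their values were seen. Some genes that this rule or the lists hold are not reported here. The members and the 42 lists were chosen with earlier results of these data known, as was the motif. Near-identical copies (haemoglobin, Hspa1 and Dcpp genes) may share reads.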

Additional observations from a re-analysis of the deposited data

Results flagged for a closer look

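Of 136 groups of 4 glands examined (42 list sums and 94 genes), 9 held a library far from the other 3 by Dixon's criterion; chance gives about 1 in 20. Gland D stood apart for the clock and glucocorticoid sum (439 CPM, high) and for Fgf10 (157 CPM, low). Gland A stood apart for the ectodysplasin sum (170 CPM, high) and for Nwd2 (14.4 CPM, high). Gland C was low for Edn2 (0.254 CPM), Fam84a (8.70 CPM) and Fgf16 (0.127 CPM), and gland B was low for Fgf1 (25.3 CPM) and Spry2 (96.2 CPM).

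For 50 of the named genes the difference of buds against glands changed between E13 and E14 by a test of the change itself (edgeR's quasi-likelihood test, adjusted p under 0.05). The values are the E14 minus the E13 log2 difference, positive for 34 genes and negative for 16. The genes highest and lowest in E13 buds were chosen by their E13 difference, which this value subtracts, so a move towards 0 follows from the choice and the test says nothing for them; their values are listed only as a description. Of the genes lowest in E13 buds, the positive ones were Vip (7.96), Ctnna2 (6.25), Prph (6.23), Stmn3 (6.11), Olfr78 (5.65), Brinp3 (5.10), Pcsk1n (5.03), Nwd2 (4.71), Cxcl13 (4.33), Scg3 (4.25) and Stmn2 (3.33). Positive FGF and ERBB ligands and cofactors were Areg (5.14), Fgf10 (5.003), Kl (4.04), Fgf2 (3.75), Nrg1 (2.58), Fgf7 (2.49) and Hbegf (1.79), and receptors were negative: Egfr (-0.77), Fgfr2 (-0.66) and Erbb2 (-0.39). Areg had 0 counts in every E13 bud and was not tested in the main comparison, and Fgf2 had few counts there. The size of the change is therefore uncertain for Areg and Fgf2. It is also uncertain for Vip (SE 2.245), Ctnna2, Stmn3, Olfr78, Pcsk1n, Nwd2, Scg3 and Prph, with 0 to 4 counts over the E13 buds. Among ERK targets and feedback genes the positive values were Dusp6 (2.80), Etv5 (2.66), Dusp4 (2.14), Etv1 (2.12), Lif (1.82), Spry4 (1.74), Phlda1 (1.56), Egr1 (1.37), Myc (1.19), Epha2 (1.10), Ccnd1 (1.04), Spry2 (1.00), Etv4 (0.98), Egr2 (0.90) and Spred2 (0.74). The marker Col1a1 (2.93) was positive too. Genes highest in E13 buds were negative: Fam196b (-3.62), Tspear (-3.21), Aldh1a1 (-3.14), Pcdh8 (-2.76), Serpinb5 (-2.54), Chdh (-2.46), Paqr6 (-2.27), Tmprss5 (-2.19), Edn2 (-1.72), Tgm5 (-1.29), Fam84a (-1.20) and Tmprss13 (-0.90). The marker Epcam (-0.67) was negative too. Beside these values, mesenchymal genes summed to 46.2% and 18.8% of the E14 gland mean in E14 buds B and C, against 6.71% to 9.58% of the E13 gland mean in E13 buds. Their part in the changes was not tested.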

How the results depend on the processing

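The counts of genes higher (5963) and lower (6292) in buds stayed within 1.5 times under other scalings, no filter on low counts, DESeq2, exclusion of haemoglobin and mitochondrial genes and all groups in 1 fit; they fell outside it with the fold of 2 also required (2527 and 3038), which shows that many calls rest on small differences. Leaving out 1 library gave 5723 to 5999 higher and 5845 to 6170 lower. The difference between stages depended on E14 bud B: leave-one-out counts ran from 947 to 1755 positive and from 491 to 1121 negative, lowest without that bud in both. Deviations of buds and glands of the same letter, A to C, correlated at 0.024, 0.0165 and 0.0451. Bud C and gland D, of different letters, gave 0.0447. These values cannot show whether the letters mark pairs, which the labels do not say. With the letter as a replicate block, 5695 genes were higher and 5973 lower, against 5723 and 6002 for the same 6 samples with no block, a fit chosen after seeing the data; for the stage difference the block gave 1589 and 966.

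Of 703 genes followed over 16 settings, 161 lost their call with the fold of 2 and 42 under another setting, and 31 gained one. Of 91 genes not called with all samples, 36 changed sign under some setting (34 of the 36 lay within 0.5 of 0 with all samples), and 3 were called there: Zbtb16 (-1.27 without bud B, leave-one-out range -1.27 to 0.81), Sgk1 (-0.31 without bud C, range -0.31 to 0.50) and Hs3st3b1 (0.18 without bud C, range -0.12 to 0.18); the cause was not tested. Leaving out 1 library moved the fold of 55 of 612 called genes by more than 1.5 times, mostly genes with few counts in buds. For 30 of the 42 lists a count of called members moved outside 1.5 times under some setting. Secretory products lower in buds were 9 in place of 5 with all groups in 1 fit, where more genes were tested, and erythroid genes lower were 3 in place of 9 without the haemoglobin genes. With the fold of 2 also required, matrix proteases and inhibitors lower were 7 in place of 14. Hypoxia and glycolysis genes lower were then 6 in place of 13, and cell cycle genes higher 11 in place of 20.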

Other observations

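The salivary secretory protein gene Smgc, singled out after its values were seen, was at 9.31 CPM in gland B, at 0.0547 to 0.0635 CPM in the other E13 glands and at 0.122 to 0.199 CPM in the buds. Gland B was also the gland with the highest skeletal muscle sum, at 1088 CPM.

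E13 buds did not lack all genes associated with mesenchymal character. Osr1, a transcription factor of early mesenchyme, was at 91.8, 86.4 and 80.6 CPM in buds and 227 to 236 CPM in glands (-1.43, SE 0.0535), and the bud level was 37.1% of the gland level, whereas the mesenchymal list as a whole was at 6.71% to 9.58%. Snai2 was at 45.4, 55.7 and 44.8 CPM in buds, and Vim at 543, 477 and 456 CPM. Their levels in single cells were not measured here.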
